A study of Mus musculus with 16 samples.

Results

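The genes of cholesterol synthesis and sterol sensing were followed in mouse liver. A list of 27 genes was taken: 20 enzymes that make cholesterol or branch from its early steps, 4 genes of the sterol sensor (Srebf2, Scap, Insig1 and Insig2), and 3 genes of sterol transport and sterol-regulated turnover (Stard4, Mylip and Abca1). Each gene was represented by the probe set annotated to its symbol, or by the probe set with the highest mean over the arrays where there were several. In this way 26 of the 27 genes were measured, among 19938 genes in all, and 19 of the 20 enzymes were among them. Acat2 had no probe set of its own in the annotation used here. Fdft1 and Idi1 had 2 probe sets each, and both gave differences of like sign and size.

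Livers came from 16 male mice aged 4 months, 1 Affymetrix Mouse Gene 1.0 ST array per liver, in 4 groups of 4. The heterozygotes were Mut +/-;TgINS-MCK-Mut and the mutants Mut -/-;TgINS-MCK-Mut, so that every mouse, controls included, carried the transgene that expresses methylmalonyl-CoA mutase from a muscle promoter, and no group was wild type or free of the transgene. Each genotype was sampled unfasted on a normal diet and fasted. The fast lasted 12 hours in heterozygotes and 8 to 12 hours in mutants, so in fasted livers the genotype and the length of the fast cannot be told apart, and the length for each mutant mouse was not given in the sources used here. Values are on the log2 scale of the array, where 1 unit is a doubling, and levels are compared between groups for the same gene only, since probe sets differ in brightness. A gene is called when its adjusted p is under 0.05 in limma's moderated test (Benjamini-Hochberg over all 19938 genes), and differences are given ± standard error with 4 arrays in each group.

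Cells make cholesterol from acetyl-CoA through mevalonate, the isoprenoids, squalene and lanosterol, and the liver is a major site of this synthesis. When sterols are scarce in the endoplasmic reticulum, the escort protein SCAP carries the SREBP precursors to the Golgi, where they are cut to release transcription factors. SREBP-2, encoded by Srebf2, mainly drives the cholesterol enzymes, and the INSIG proteins hold SCAP back when sterols are plentiful. Oxidised sterols act through another receptor, LXR, whose targets include Abca1 and Mylip.

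The promoters of the enzymes below are shown because these 7 genes were called both in fasted mutants against fasted heterozygotes and in the fasting response of heterozygotes, and had a window in the promoter table. They were chosen on those calls. Each line holds the 150 bases before the RefSeq start site on the build GRCm38.p6, in the direction of the gene. Capitals mark the core of the sterol regulatory element (TCACNCCAC), the NF-Y motif (CCAAT) and the Sp1 motif (GGGCGG), on either strand, so that the reverse complements ATTGG and CCGCCC also appear. The windows are Hmgcs1 at chr13:119690201-119690350 (plus strand), Idi1 at chr13:8885456-8885605 (plus), Lss at chr10:76531455-76531604 (plus), Cyp51 at chr5:4104698-4104847 (minus), Lbr at chr1:181842402-181842551 (minus), Nsdhl at chrX:72918371-72918520 (plus) and Sc5d at chr9:42264301-42264450 (minus).
Hmgcs1: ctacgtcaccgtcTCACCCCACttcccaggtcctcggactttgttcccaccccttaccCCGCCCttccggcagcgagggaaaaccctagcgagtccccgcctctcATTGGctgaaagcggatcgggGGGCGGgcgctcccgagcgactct
Idi1: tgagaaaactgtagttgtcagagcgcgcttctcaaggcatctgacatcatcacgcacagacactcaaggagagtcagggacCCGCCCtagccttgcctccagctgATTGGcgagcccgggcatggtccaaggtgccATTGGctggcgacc
Lss: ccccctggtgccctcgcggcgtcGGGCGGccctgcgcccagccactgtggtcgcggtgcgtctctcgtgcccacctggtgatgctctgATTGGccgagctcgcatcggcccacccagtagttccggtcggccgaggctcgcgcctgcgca
Cyp51: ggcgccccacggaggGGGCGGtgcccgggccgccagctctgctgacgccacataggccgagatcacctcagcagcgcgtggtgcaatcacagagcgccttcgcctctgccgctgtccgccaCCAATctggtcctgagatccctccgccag
Lbr: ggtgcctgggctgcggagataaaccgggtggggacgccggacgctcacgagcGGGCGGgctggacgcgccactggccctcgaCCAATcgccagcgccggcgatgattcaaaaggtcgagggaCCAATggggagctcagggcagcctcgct
Nsdhl: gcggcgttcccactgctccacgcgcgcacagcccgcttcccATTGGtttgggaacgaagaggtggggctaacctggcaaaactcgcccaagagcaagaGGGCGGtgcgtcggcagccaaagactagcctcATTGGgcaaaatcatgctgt
Sc5d: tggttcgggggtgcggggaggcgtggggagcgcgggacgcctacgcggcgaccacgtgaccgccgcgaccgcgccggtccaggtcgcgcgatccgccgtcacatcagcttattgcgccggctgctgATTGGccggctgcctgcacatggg

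In the full windows, which reach from 250 bases before to 50 bases after the start, 23 of the 27 genes had at least 1 of 29 windows in the table. The motif CCAAT was present in 20 of these 29 windows, against 37.4% of all 32851 mouse promoter windows. The motif GGGCGG was present in 24 of the 29 windows, against 35.7% of all windows. The sterol element core was found for 1 gene, Hmgcs1, at -137 to -129 from its start, against 1.24% of all windows. These are letter matches in a short window and give no evidence of binding.

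The 4 groups stood in a common order for most enzymes. The mean was highest in unfasted mutants for 16 of the 19 measured enzymes and lowest in fasted heterozygotes for 16. The order unfasted mutant, unfasted heterozygote, fasted mutant, fasted heterozygote held for 13. The mean of fasted mutants lay between the means of fasted and unfasted heterozygotes for 14 enzymes. It lay above both for Sqle, Lss and Hsd17b7, and below both for Tm7sf2 and Ebp. The shares of all genes with these orders were not counted. For each array, the median of the 19 enzymes was taken relative to the mean of unfasted heterozygotes. It read 0.25, -0.43, -0.01 and 0.16 in unfasted heterozygotes, -0.88, -0.60, -0.62 and -0.55 in fasted heterozygotes, 0.49, 0.50, 0.51 and 0.39 in unfasted mutants, and -0.02, -0.10, -0.70 and 0.10 in fasted mutants. Unfasted mutants were thus above every other array, and 3 of the 4 fasted mutants were above every fasted heterozygote. The third replicate of the fasted mutants lay inside the range of the fasted heterozygotes.

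**Figure D1:**
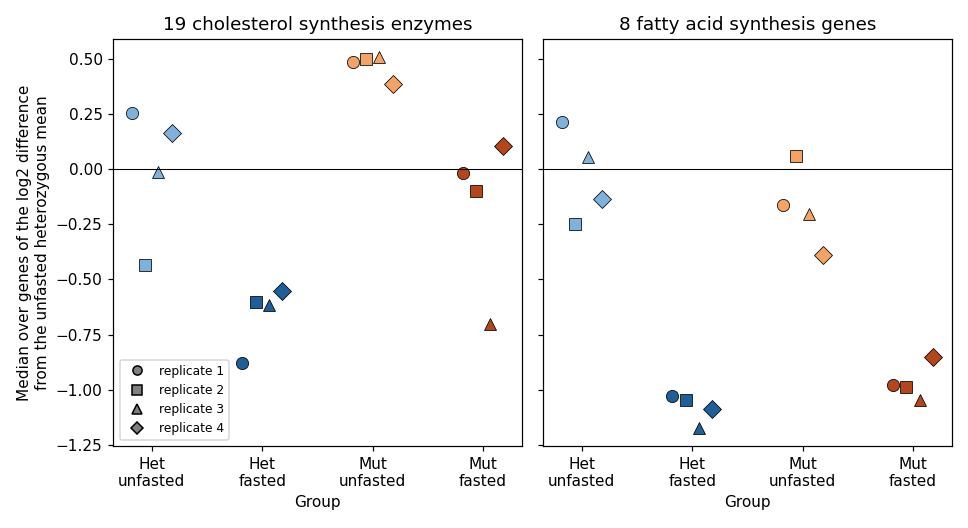
Median over the 19 cholesterol enzymes (left) and over 8 fatty acid synthesis genes (right) on each of the 16 arrays, in log2 units relative to the mean of unfasted heterozygotes; each symbol is an array and its shape the replicate number. On the left the 4 unfasted mutants sit between 0.39 and 0.51, the fasted heterozygotes between -0.88 and -0.55 and replicate 3 of the fasted mutants at -0.70, and on the right all fasted arrays lie at or below -0.85.

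On several arrays most enzymes lay to 1 side of their group. Replicate 1 of the fasted heterozygotes was the lowest of its group for 13 of 19 enzymes and replicate 4 the highest for 12. Replicate 1 of the unfasted heterozygotes was the highest of its group for 13, and replicate 4 of the fasted mutants for 14. The count was largest, at 16, on the 2 arrays described next. Replicate 3 of the fasted mutants was the lowest of its group for 16 of 19 enzymes and lay within or below the range of fasted heterozygotes for 16, against 2, 4 and 3 enzymes on the other fasted mutants. Its mean correlation with its own group over all genes was 0.993, against 0.992 to 0.994 on the other 3. Replicate 2 of the unfasted heterozygotes was the lowest of its group for 16 of 19 enzymes, with a correlation of 0.994. The median SD between mice was larger over the 19 enzymes than over all genes. It was 0.32 in unfasted heterozygotes, 0.21 in fasted heterozygotes, 0.15 in unfasted mutants and 0.38 in fasted mutants, against 0.07, 0.07, 0.11 and 0.09 over all genes. The enzymes' mean levels lay between the percentiles 63.1 and 98.8 of all genes, and genes of like level were not compared.

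The targeted gene, Mmut (named Mut in the labels), read 9.82 ± 0.11 in unfasted and 9.89 ± 0.15 in fasted heterozygotes, and 8.04 ± 0.20 in unfasted and 8.09 ± 0.20 in fasted mutants (SD, n = 4). Where its probes lie relative to the disrupted part of the gene was not given in the sources used here. The mean of 7 hepatocyte markers lay between 12.8 and 13.3 on every array. Of these 7, Serpina1c was called lower in mutants in both feeding states and none was called higher. Of all genes 3.69% were called lower in unfasted and 5.01% in fasted mutants. In fasted livers the groups did not overlap for 4 of the 7, all lower in mutants, against 11% of all genes lower. The mean of the 5 measured of 7 listed pancreatic acinar markers was 11.20 on replicate 1 of the unfasted mutants and 7.01 to 7.24 on the other 15 arrays. Cpa1 was at 12.29 and Ctrb1 at 12.64 on that array. For the 3 measured of 4 listed adipocyte markers the mean was 7.50 on replicate 1 of the fasted mutants. It was 6.67 to 6.91 on the other 15 arrays. Of 7 macrophage markers, none was called by limma in unfasted mutants, with 2 at an unadjusted p under 0.05, against 21.8% of all genes. In fasted mutants 6 of the 7 were called higher, against 8.62% of all genes. Of 5 stellate markers 4 were higher in unfasted and 2 in fasted mutants, and of 5 endothelial markers 4 and 3, against 4.25% of all genes higher in unfasted and 8.62% in fasted mutants. The stellate and endothelial means ran from 8.25 to 8.53 and from 8.68 to 9.16 in heterozygotes, and from 8.47 to 8.94 and from 9.21 to 9.79 in mutants. Array values come from whole liver, where fewer cells of a type and less RNA per cell cannot be told apart, and the part of these markers in the results below was not tested.

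In unfasted livers Hmgcs1 of the early mevalonate steps, Fdft1 and Lss of the 3 squalene and lanosterol enzymes, Srebf2 and Mylip were higher in mutants, and Insig2 was lower. Of the 26 genes, 5 were called higher and 1 lower, against 4.25% and 3.69% of all genes and 7.94% in either direction. The median difference was 0.37 over the 26 genes and 0.52 over the 19 enzymes, of which 17 had a positive difference, against a median of 0.0052 over all genes. The groups did not overlap for 12 of the 26, all of them higher in mutants, against 6.16% of all genes higher and 5.83% lower. When the arrays were centred on their medians, 34.3% of the genes called were higher rather than 53.5%, and 5 of the 26 were still called, Hmgcs1 being the one lost.

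HMG-CoA synthase, encoded by Hmgcs1, makes the precursor of mevalonate. Hmgcs1 read 11.33, 11.22, 11.61 and 11.54 in unfasted heterozygotes, 10.55, 10.83, 10.61 and 10.98 in fasted heterozygotes, 11.95, 11.92, 12.15 and 11.98 in unfasted mutants, and 11.48, 11.34, 10.70 and 11.62 in fasted mutants. All unfasted mutants were above all other arrays. The genotype difference in unfasted livers was 0.58 ± 0.16, a 1.49-fold higher level (limma adjusted p = 0.0368). This call was lost with array weights, where the difference was 0.52, and with arrays centred on their medians, where it was 0.53.

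Among the other mevalonate enzymes none was called in unfasted livers. Mvk and Pmvk, the kinases that phosphorylate mevalonate and phosphomevalonate, differed by 0.27 ± 0.10 (limma adjusted p = 0.118) and 0.52 ± 0.18 (0.0888), and Mvd, the decarboxylase, by 0.27 ± 0.11 (0.17). Idi1, which isomerises the first isoprenoid unit, differed by 0.87 ± 0.29 (limma adjusted p = 0.0809). The 4 unfasted mutants lay between 11.74 and 12.07 and the unfasted heterozygotes between 10.28 and 11.57, without overlap. Fdps, which joins these units to farnesyl diphosphate, differed by 0.49 ± 0.22 (0.21), and Ggps1, which leads to geranylgeranyl diphosphate and away from sterols, by -0.17 ± 0.09 (0.331).

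The 3 enzymes from farnesyl diphosphate to lanosterol follow. Fdft1, squalene synthase, read 12.12, 11.64, 11.94 and 12.05 in unfasted heterozygotes and 12.42, 12.48, 12.54 and 12.51 in unfasted mutants, 0.55 ± 0.15 higher and without overlap (limma adjusted p = 0.03). Sqle, squalene epoxidase, which sets a pace-limiting step after mevalonate, read 10.40, 8.48, 9.45 and 9.96 in unfasted heterozygotes, 7.69, 8.48, 8.44 and 9.28 in fasted heterozygotes, 11.17, 11.21, 10.97 and 10.84 in unfasted mutants, and 10.55, 10.39, 8.62 and 10.69 in fasted mutants. The unfasted mutants were again above all other arrays, while the heterozygotes were spread widely. The Sqle difference of 1.48 ± 0.45, a 2.78-fold level, was the largest of the 26 in this comparison and was not called (limma adjusted p = 0.054).

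Lss, lanosterol synthase, closes the sterol rings. Lss read 10.00, 9.06, 9.50 and 9.67 in unfasted heterozygotes, 8.20, 8.50, 8.50 and 8.54 in fasted heterozygotes, 10.68, 10.69, 10.48 and 10.28 in unfasted mutants, and 9.90, 9.67, 8.82 and 9.90 in fasted mutants. In both feeding states the 4 mutants were above the 4 heterozygotes. The unfasted difference was 0.98 ± 0.22, a 1.97-fold level (limma adjusted p = 0.0129).

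None of the 9 enzymes from lanosterol to cholesterol was called in unfasted livers. For 4 of them the groups did not overlap, all higher in mutants, against 6.16% of all genes higher and 5.83% lower. An unadjusted p under 0.05 in limma was found for 4, against 21.8% of all genes. Cyp51, the lanosterol demethylase, differed by 0.85 ± 0.29 (limma adjusted p = 0.0863), and the sterol oxidase Msmo1 by 0.85 ± 0.33 (0.137). The dehydrogenase Nsdhl differed by 0.53 ± 0.28 (0.29) and the reductase Hsd17b7 by 0.56 ± 0.18 (0.0666), and these were the 4 without overlap. Dhcr7, the last reductase, differed by 0.33 ± 0.24, and the reductases Tm7sf2 and Lbr and the desaturase Sc5d by 0.04 ± 0.19, 0.02 ± 0.09 and 0.07 ± 0.06. Ebp, the sterol isomerase, was the only one of these 9 with a negative difference, -0.27 ± 0.12 (limma adjusted p = 0.2).

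Srebf2 encodes SREBP-2 and is itself one of its targets. Srebf2 read 9.52, 9.39, 9.32 and 9.43 in unfasted heterozygotes, 9.32, 9.37, 9.50 and 9.57 in fasted heterozygotes, 9.76, 9.76, 9.97 and 9.82 in unfasted mutants, and 9.72, 9.54, 9.37 and 9.75 in fasted mutants. The unfasted mutants were above all other arrays, and the other groups overlapped. The unfasted difference was 0.41 ± 0.09 (limma adjusted p = 0.0107).

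Of the 2 retention proteins, Insig2, whose liver transcript rises on fasting in mice, read 11.82, 12.26, 12.52 and 12.48 in unfasted heterozygotes, 12.66, 12.61, 12.88 and 12.74 in fasted heterozygotes, 12.06, 11.77, 11.30 and 11.66 in unfasted mutants, and 12.40, 12.34, 12.62 and 12.29 in fasted mutants. The unfasted groups overlapped through replicate 1 of each genotype. The unfasted difference was -0.57 ± 0.15 (limma adjusted p = 0.0328), a call lost with the replicate block and in the fit on only the unfasted arrays. Insig1, an SREBP target that acts in the same way, differed by -0.21 ± 0.22 (0.641), and Scap by -0.0041 ± 0.08 (0.986).

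Mylip encodes a ubiquitin ligase that sends lipoprotein receptors for degradation. Mylip read 9.08, 9.08, 8.69 and 8.97 in unfasted heterozygotes, 9.62, 9.59, 9.77 and 9.45 in fasted heterozygotes, 9.33, 9.52, 9.53 and 9.37 in unfasted mutants, and 9.74, 9.63, 9.61 and 9.75 in fasted mutants. Unfasted heterozygotes were below all other arrays. The unfasted difference was 0.48 ± 0.09 (limma adjusted p = 0.00516). Stard4, a carrier of cholesterol between membranes, differed by -0.11 ± 0.16, and the cholesterol exporter Abca1 by -0.19 ± 0.12, neither called.

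The unfasted calls differed in how far they depended on single arrays. Leaving out a single array left between 3 and 10 of the 26 genes called, and 698 to 1781 of all genes. The count was 3 without replicate 2 or 3 of the unfasted mutants or replicate 2, 3 or 4 of the unfasted heterozygotes. It was 4 without replicate 4 of the unfasted mutants, and 10 without replicate 3 of the fasted mutants, which enters only through the shared spread. Lss, Srebf2 and Mylip kept their call without any single array. Hmgcs1 lost it without any 1 of the 8 unfasted arrays (limma adjusted p up to 0.0983). Fdft1 (up to 0.0813) and Insig2 (up to 0.119) lost it without replicate 2, 3 or 4 of either unfasted group. Without replicate 1 of the unfasted mutants, the array with high acinar markers, 5 were called.

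**Figure D2:**
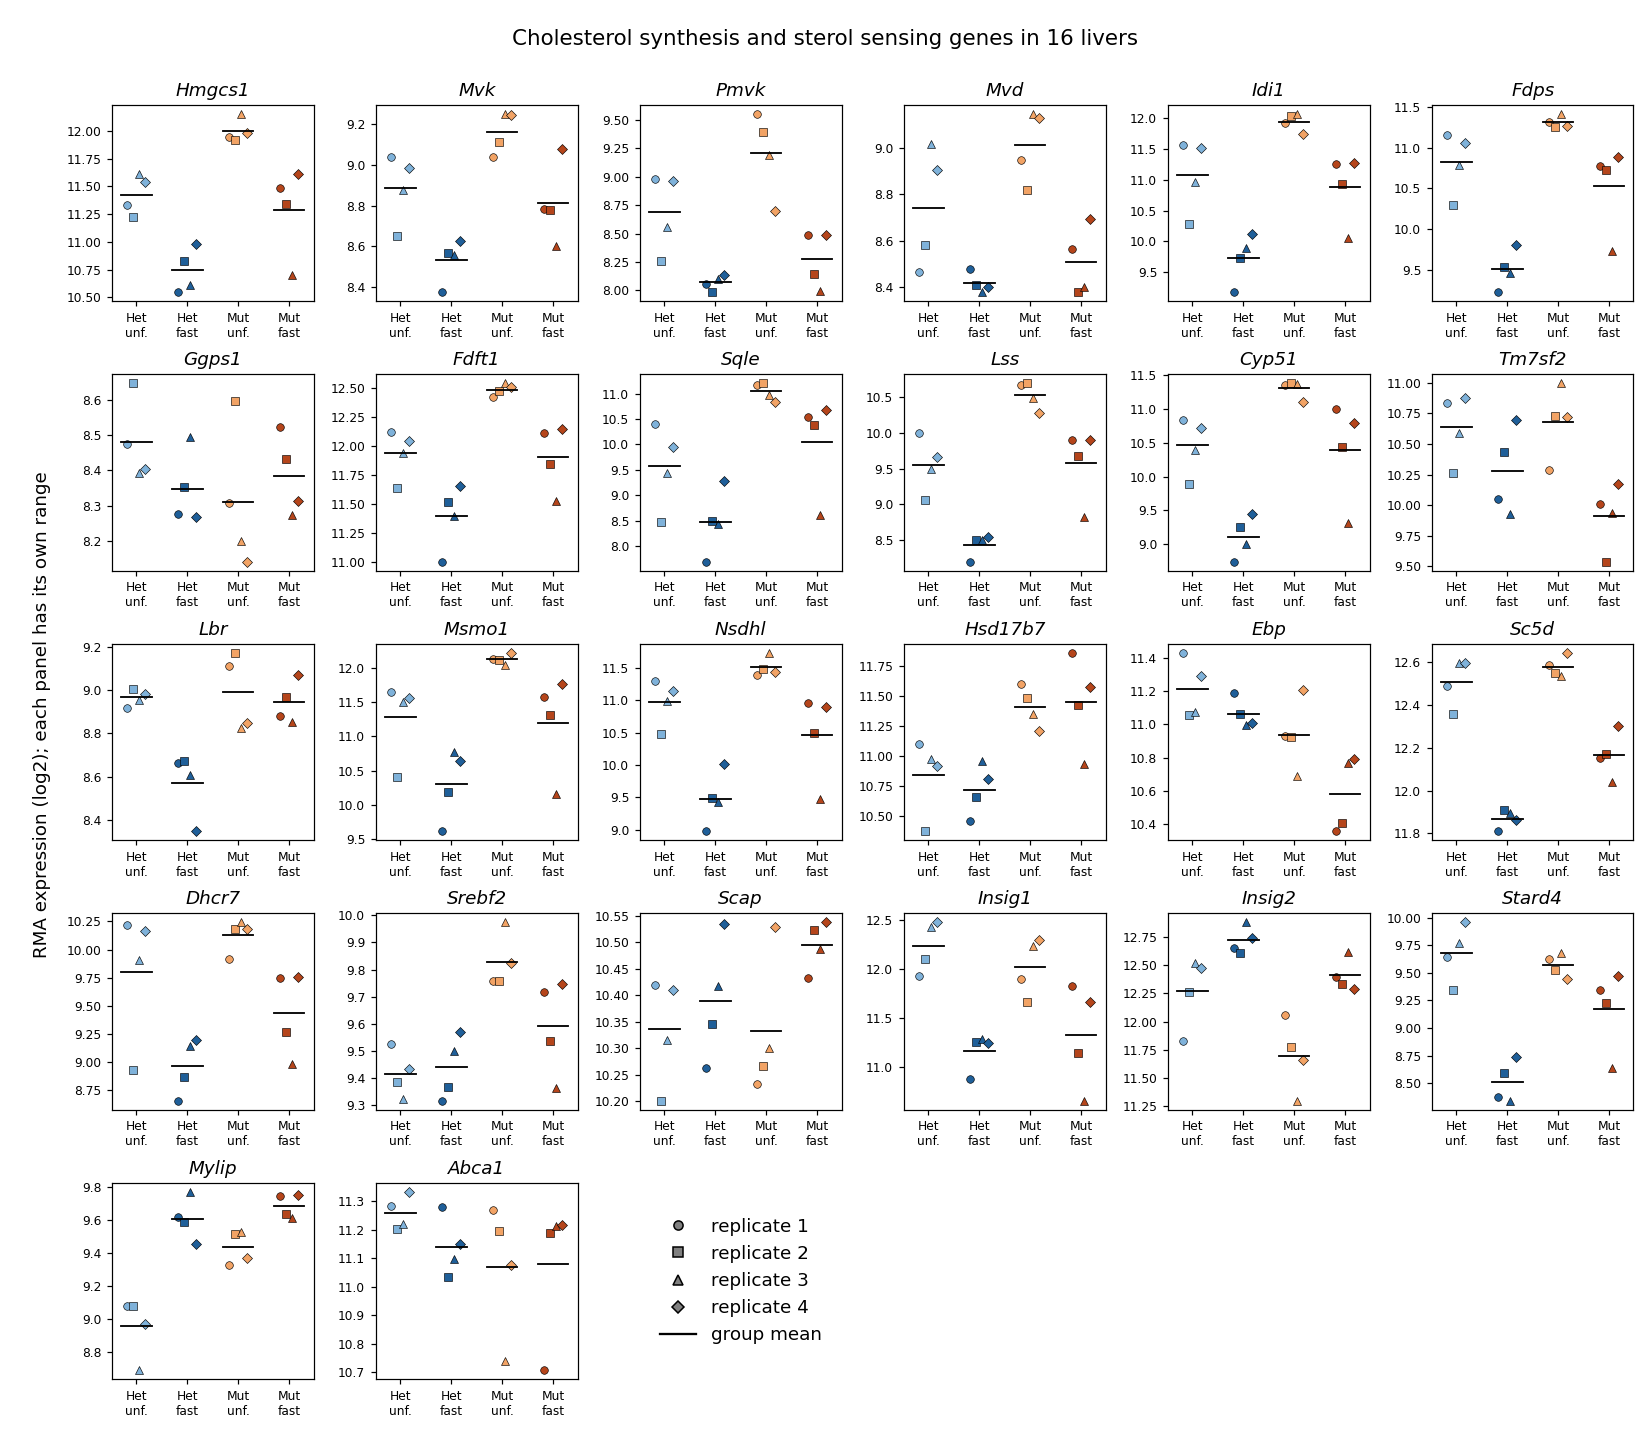
Log2 level of the listed genes on each of the 16 arrays, in 1 panel per gene with its own range, in the order of the pathway. Symbols are arrays (shape, replicate number; colour, group) and lines are group means. For Lss all mutants lie above all heterozygotes of the same feeding state, and for Sqle the fasted mutant at 8.62 lies far below the other 3.

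In fasted livers enzymes of every stage and Stard4 were higher in mutants, with the largest differences for Sqle, Cyp51, Idi1, Lss and Fdps, and Ebp was lower. Of the 26 genes, 12 were called higher and 1 lower, against 8.62% and 5.01% of all genes and 13.6% in either direction. The median difference was 0.33 over the 26 genes and 0.52 over the 19 enzymes, of which 11 were called higher and 1 lower, against a median of -0.022 over all genes. The groups did not overlap for 3 genes higher and 1 lower, against 12.8% and 11% of all genes. For Sqle, Cyp51, Idi1 and Fdps, replicate 3 of the fasted mutants lay within the range of the fasted heterozygotes. Centring the arrays on their medians left 13 of the 26 called, while 43.4% rather than 63.3% of all genes called were higher.

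Among the mevalonate enzymes, Idi1 read 9.17, 9.72, 9.89 and 10.12 in fasted heterozygotes and 11.25, 10.93, 10.06 and 11.28 in fasted mutants. The mutant at 10.06 was below the highest heterozygote and the other 3 were above all of them. The Idi1 difference was 1.16 ± 0.29, a 2.23-fold level (limma adjusted p = 0.0163). Fdps read 9.23, 9.53, 9.46 and 9.81 in fasted heterozygotes and 10.78, 10.73, 9.73 and 10.89 in fasted mutants, the same pattern, with a difference of 1.03 ± 0.22 (0.00751). Hmgcs1 was higher by 0.54 ± 0.16 (limma adjusted p = 0.0348). This call was lost in the fit on only the fasted arrays, with array weights and after further quantile normalization. Mvk differed by 0.28 ± 0.10 (0.0781), Pmvk by 0.21 ± 0.18, Mvd by 0.09 ± 0.11 and Ggps1 by 0.04 ± 0.09, none called.

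All 3 enzymes of squalene and lanosterol were called higher, against 8.62% of all genes. Sqle was higher by 1.59 ± 0.45, a 3.0-fold level (limma adjusted p = 0.0287), Lss by 1.14 ± 0.22 (0.00388) and Fdft1 by 0.52 ± 0.15 (0.0289). The Fdft1 call was lost in the fit on only the fasted arrays and after further quantile normalization. Lss was the only one of the 3 whose groups did not overlap, with 8.82 the lowest mutant and 8.54 the highest heterozygote.

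Of the 9 later enzymes, 5 were called higher and 1 lower, against 8.62% and 5.01% of all genes. Cyp51 read 10.85, 9.89, 10.39 and 10.72 in unfasted heterozygotes, 8.74, 9.25, 9.00 and 9.44 in fasted heterozygotes, 11.36, 11.38, 11.37 and 11.11 in unfasted mutants, and 11.00, 10.44, 9.31 and 10.79 in fasted mutants. Of the fasted mutants, 3 were at or above 10.44, and the fourth lay inside the range of the fasted heterozygotes. The Cyp51 difference in fasted livers was 1.28 ± 0.29, a 2.43-fold level (limma adjusted p = 0.00921). Nsdhl was higher by 0.98 ± 0.28 (0.0306), a call lost in the fit on only the fasted arrays, and Hsd17b7 by 0.73 ± 0.18 (0.0149).

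Lbr and Sc5d differed by less, with less spread. Lbr, a nuclear membrane protein that also reduces sterols, read 8.66, 8.67, 8.61 and 8.35 in fasted heterozygotes and 8.88, 8.97, 8.85 and 9.07 in fasted mutants, 0.37 ± 0.09 higher (limma adjusted p = 0.0132). Sc5d read 12.49, 12.36, 12.60 and 12.60 in unfasted heterozygotes, 11.81, 11.91, 11.89 and 11.86 in fasted heterozygotes, 12.59, 12.55, 12.54 and 12.65 in unfasted mutants, and 12.15, 12.17, 12.04 and 12.30 in fasted mutants. Every fasted mutant was above every fasted heterozygote and below every unfasted mouse for Sc5d. Its fasted difference was 0.30 ± 0.06 (limma adjusted p = 0.0065).

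Ebp went the other way. Ebp read 11.43, 11.06, 11.07 and 11.29 in unfasted heterozygotes, 11.19, 11.07, 10.99 and 11.01 in fasted heterozygotes, 10.93, 10.92, 10.69 and 11.21 in unfasted mutants, and 10.36, 10.40, 10.77 and 10.79 in fasted mutants. All fasted mutants were below all heterozygotes. The fasted difference was -0.49 ± 0.12 (limma adjusted p = 0.0162). Msmo1 differed by 0.90 ± 0.33 (0.0828), Dhcr7 by 0.48 ± 0.24 (0.194) and Tm7sf2 by -0.36 ± 0.19 (0.214), none called.

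None of the 4 sensor genes was called in fasted livers by limma, and none had an unadjusted p under 0.05, against 30% of all genes. Srebf2 differed by 0.15 ± 0.09, Scap by 0.11 ± 0.08, Insig1 by 0.16 ± 0.22 and Insig2 by -0.31 ± 0.15. Of the transport genes Stard4 was called. Stard4 read 9.64, 9.34, 9.77 and 9.96 in unfasted heterozygotes, 8.37, 8.59, 8.34 and 8.74 in fasted heterozygotes, 9.63, 9.53, 9.68 and 9.45 in unfasted mutants, and 9.34, 9.23, 8.64 and 9.47 in fasted mutants. The fasted mutants except replicate 3 were above the fasted heterozygotes, by 0.66 ± 0.16 over the 4 arrays (limma adjusted p = 0.0132). Mylip differed by 0.08 ± 0.09 and Abca1 by -0.06 ± 0.12.

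Leaving out a single array left 8 to 15 of the 26 genes called in fasted livers, and 1575 to 3180 of all genes. The count was 15 without replicate 3 of the fasted mutants. It was 8 without replicate 1 or 2 of the fasted mutants or replicate 1 of the fasted heterozygotes. Replicate 1 of the fasted mutants was the array with high adipocyte markers. Fdps, Lss, Cyp51, Lbr, Hsd17b7, Sc5d and Stard4 kept their call without any single array. Hmgcs1 (limma adjusted p up to 0.0969), Sqle (up to 0.0887) and Nsdhl (up to 0.0944) lost it without replicate 1, 2 or 4 of the fasted mutants or replicate 1, 2 or 3 of the fasted heterozygotes. Fdft1 lost it without the same arrays other than replicate 2 of the fasted heterozygotes (up to 0.0891), Ebp without replicate 1 or 2 of the fasted mutants (up to 0.0586), and Idi1 without replicate 1 of the fasted heterozygotes (0.0548). Without replicate 3 of the fasted mutants the Sqle difference was 2.07 and that of Cyp51 1.64.

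**Figure D3:**
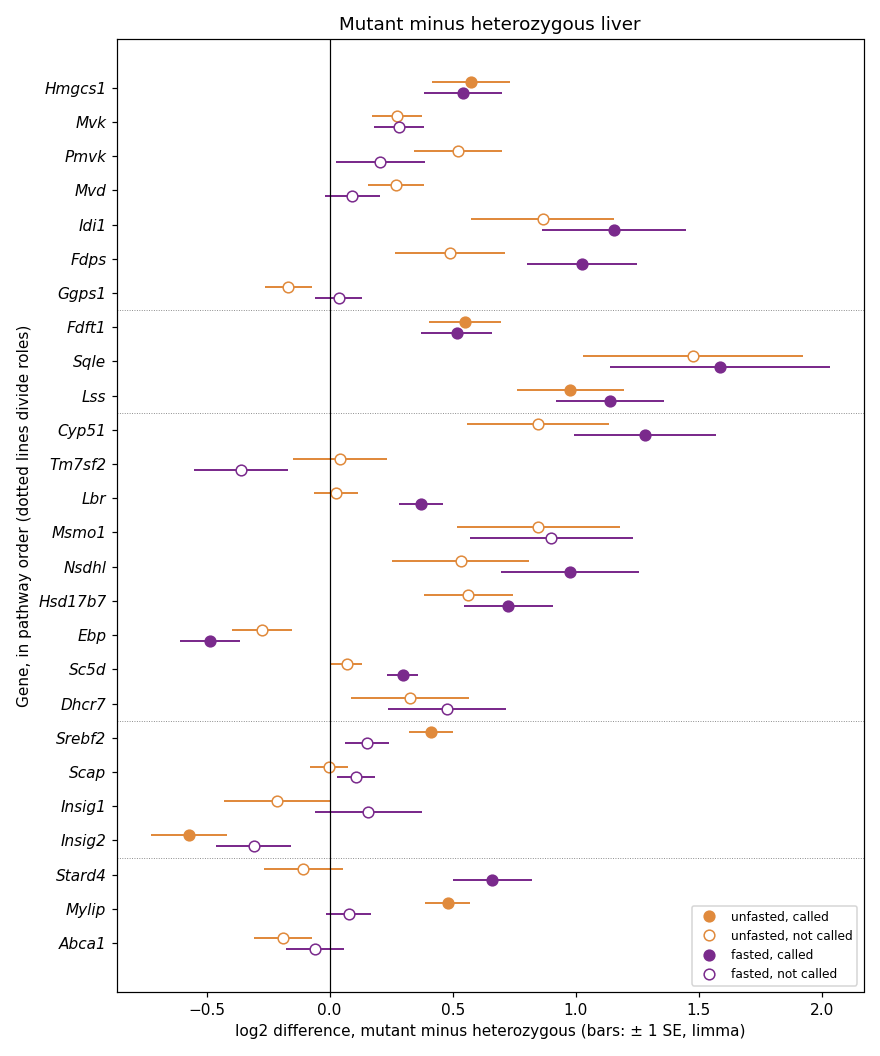
Mutant minus heterozygous difference in log2 units for the listed genes, in unfasted and fasted livers, with bars of 1 standard error on each side from limma; filled points are called. The squalene and lanosterol enzymes are positive in both feeding states, 0.98 and 1.14 for Lss, and Ebp is negative in both.

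In heterozygotes, enzymes of every stage were lower after fasting, as were Insig1 and Stard4, and Mylip was higher. Of the 26 genes, 10 were called lower and 1 higher, against 0.838% and 0.732% of all genes and 1.57% in either direction. All 19 enzymes had a negative difference, 8 of them called, with a median of -0.64 against 0.0067 over all genes. The groups did not overlap for 12 genes lower and 2 higher, against 5.11% and 5.35% of all genes. The unfasted heterozygotes are also the controls of the unfasted genotype comparison and the fasted heterozygotes those of the fasted one, so these comparisons are not independent.

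The mevalonate enzymes Idi1 and Fdps fell by 1.36 and 1.32 on the log2 scale (limma adjusted p = 0.0264 and 0.00778). Hmgcs1 fell by 0.68 (0.0418). Pmvk, at -0.62 ± 0.18 (0.109), and Mvk, at -0.36 ± 0.10 (0.101), were not called although their groups did not overlap. Mvd differed by -0.33 ± 0.11 and Ggps1 by -0.13 ± 0.09, and neither was called.

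Lss fell by 1.12 (limma adjusted p = 0.0159). Sqle differed by -1.10 ± 0.45 (0.296) and Fdft1 by -0.54 ± 0.15 (0.0791), both with overlap. For Sqle the overlap came from replicate 2 of the unfasted heterozygotes, at 8.48, since the other 3 were above all fasted ones.

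Nsdhl had the largest difference of the pathway. Nsdhl read 11.29, 10.48, 10.99 and 11.14 in unfasted heterozygotes, 8.98, 9.48, 9.43 and 10.02 in fasted heterozygotes, 11.39, 11.48, 11.73 and 11.43 in unfasted mutants, and 10.96, 10.49, 9.47 and 10.90 in fasted mutants. In heterozygotes the fed and fasted ranges were separate, and the difference was -1.50 ± 0.28, a 2.82-fold lower level (limma adjusted p = 0.0133). Cyp51 fell by 1.36 (0.0257) and Lbr by 0.39 (0.0369).

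Sc5d had the smallest adjusted p of the 26 genes in this response. Sc5d fell by 0.64 (standard error 0.06, limma adjusted p = 7.96e-05), and all fasted heterozygotes were below 12 while all unfasted ones were above it. Msmo1 differed by -0.98 ± 0.33 (0.188), Dhcr7 by -0.84 ± 0.24 (0.103), Tm7sf2 by -0.36 ± 0.19, Ebp by -0.15 ± 0.12 and Hsd17b7 by -0.12 ± 0.18, none called.

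Insig1 read 11.92, 12.10, 12.43 and 12.47 in unfasted heterozygotes, 10.88, 11.25, 11.29 and 11.24 in fasted heterozygotes, 11.89, 11.66, 12.23 and 12.29 in unfasted mutants, and 11.82, 11.14, 10.65 and 11.66 in fasted mutants. The heterozygous groups did not overlap, and Insig1 fell by 1.07 (limma adjusted p = 0.0194). Insig2 had a positive difference of 0.45 ± 0.15 that was not called (0.189), and its groups did not overlap. Srebf2 differed by 0.02 ± 0.09 and Scap by 0.05 ± 0.08.

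Stard4 fell by 1.17, a 2.25-fold lower level (limma adjusted p = 0.00216), with every fasted heterozygote at or below 8.74 and every unfasted one at or above 9.34. Mylip rose by 0.65 ± 0.09 (0.00233), also without overlap. Abca1 differed by -0.12 ± 0.12 and was not called.

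Without single arrays, 5 to 14 of the 26 genes were called in heterozygotes, and 155 to 358 of all genes. The count was 14 without replicate 2 of the unfasted group, 7 without its replicate 1, 6 without its replicate 3 and 5 without its replicate 4, and it was 5 without replicate 1 and 7 without replicate 2 or 3 of the fasted group. Fdps, Nsdhl, Sc5d, Stard4 and Mylip kept their call without any single array. Idi1 (limma adjusted p up to 0.0971) and Cyp51 (up to 0.0902) lost it without replicate 1, 3 or 4 of the unfasted or replicate 1, 2 or 3 of the fasted heterozygotes. Hmgcs1 lost it without any of these 6 and also without replicate 2 of either mutant group (up to 0.128). Lbr lost it without any 1 of the 8 heterozygous arrays (up to 0.117), Insig1 without replicate 3 or 4 of the unfasted or replicate 1 of the fasted heterozygotes (up to 0.0707), and Lss without replicate 4 of the unfasted or replicate 1 of the fasted heterozygotes (up to 0.0556).

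In mutants, enzymes of every stage were also lower after fasting, and Insig2 was higher. Of the 26 genes, 7 were called lower and 1 higher, against 1.02% and 2.33% of all genes and 3.35% in either direction. The enzymes had a median difference of -0.72, with 17 of 19 negative and 7 called, against -0.015 over all genes. The groups did not overlap for 15 genes lower and 2 higher, against 4.54% and 5.49% of all genes. A fit on only the 8 mutant arrays called none of the 26 with limma, although 21 had an unadjusted p under 0.05 there (15.7% of all genes).

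Of the early steps, Pmvk read 8.98, 8.26, 8.56 and 8.96 in unfasted heterozygotes, 8.05, 7.98, 8.10 and 8.14 in fasted heterozygotes, 9.56, 9.39, 9.19 and 8.70 in unfasted mutants, and 8.49, 8.14, 7.99 and 8.49 in fasted mutants. The mutants' fed and fasted ranges were separate, and Pmvk fell by 0.93 (limma adjusted p = 0.0133). Hmgcs1 fell by 0.72 (0.0245) and Mvd by 0.50 (0.0254). Idi1, at -1.07 ± 0.29 (0.0548), and Fdps, at -0.78 ± 0.22 (0.0633), did not reach the threshold although their groups did not overlap. Mvk differed by -0.35 ± 0.10 (0.0677) and Ggps1 by 0.07 ± 0.09.

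Lss fell by 0.96 (limma adjusted p = 0.0267) and Fdft1 by 0.58 (0.0405). Sqle differed by -0.99 ± 0.45 (0.206). All 3 had fed mutants above all fasted ones.

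Among the later enzymes, Sc5d fell by 0.41 (limma adjusted p = 0.00466) and Tm7sf2 by 0.77 (0.0389). Tm7sf2 read 10.83, 10.27, 10.59 and 10.88 in unfasted heterozygotes, 10.05, 10.43, 9.93 and 10.70 in fasted heterozygotes, 10.29, 10.73, 11.00 and 10.72 in unfasted mutants, and 10.01, 9.54, 9.94 and 10.18 in fasted mutants. Its mutant ranges were separate and its heterozygous ranges overlapped. Nsdhl differed by -1.05 ± 0.28 (0.0505), Cyp51 by -0.92 ± 0.29 (0.0862), Msmo1 by -0.93 ± 0.33 (0.126) and Dhcr7 by -0.69 ± 0.24 (0.114), all without overlap and none called. Ebp differed by -0.36 ± 0.12, Lbr by -0.05 ± 0.09 and Hsd17b7 by 0.04 ± 0.18.

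Insig2 rose by 0.71 ± 0.15 (limma adjusted p = 0.0218), with the fasted mutants between 12.29 and 12.62 and the unfasted between 11.30 and 12.06. Insig1 differed by -0.70 ± 0.22 (0.0817), Srebf2 by -0.24 ± 0.09 (0.137) and Scap by 0.16 ± 0.08 (0.23). Mylip differed by 0.25 ± 0.09 (0.127), Stard4 by -0.40 ± 0.16 (0.159) and Abca1 by 0.01 ± 0.12, and none of the 3 was called.

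Leaving out a single array left 2 to 12 of the 26 genes called in mutants, and 224 to 1941 of all genes. The count was 2 without replicate 2 of the fasted mutants, 3 without replicate 4 of the unfasted mutants and 4 without replicate 2 or 3 of the unfasted or replicate 3 of the fasted mutants. It was 12 without replicate 2 of the unfasted heterozygotes, which enters only through the shared spread, and 10 without replicate 1 of the unfasted mutants, the array with high acinar markers. Without that last array 4.47% of all genes were called lower and 5.27% higher. Pmvk and Sc5d kept their call without any single array. Hmgcs1 lost it without replicate 2, 3 or 4 of the unfasted or replicate 2 of the fasted mutants (limma adjusted p up to 0.0628), Mvd without replicate 3 or 4 of the unfasted or replicate 2 or 3 of the fasted mutants (up to 0.0792), Lss without replicate 2 of either (up to 0.071), and Insig2 without replicate 4 of the unfasted or replicate 2 or 3 of the fasted mutants (up to 0.0595). Fdft1 (up to 0.106) lost it without any 1 of 9 arrays and Tm7sf2 (up to 0.12) without any 1 of 8. Both sets hold replicates 2, 3 and 4 of the unfasted and 2 and 3 of the fasted mutants.

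**Figure D4:**
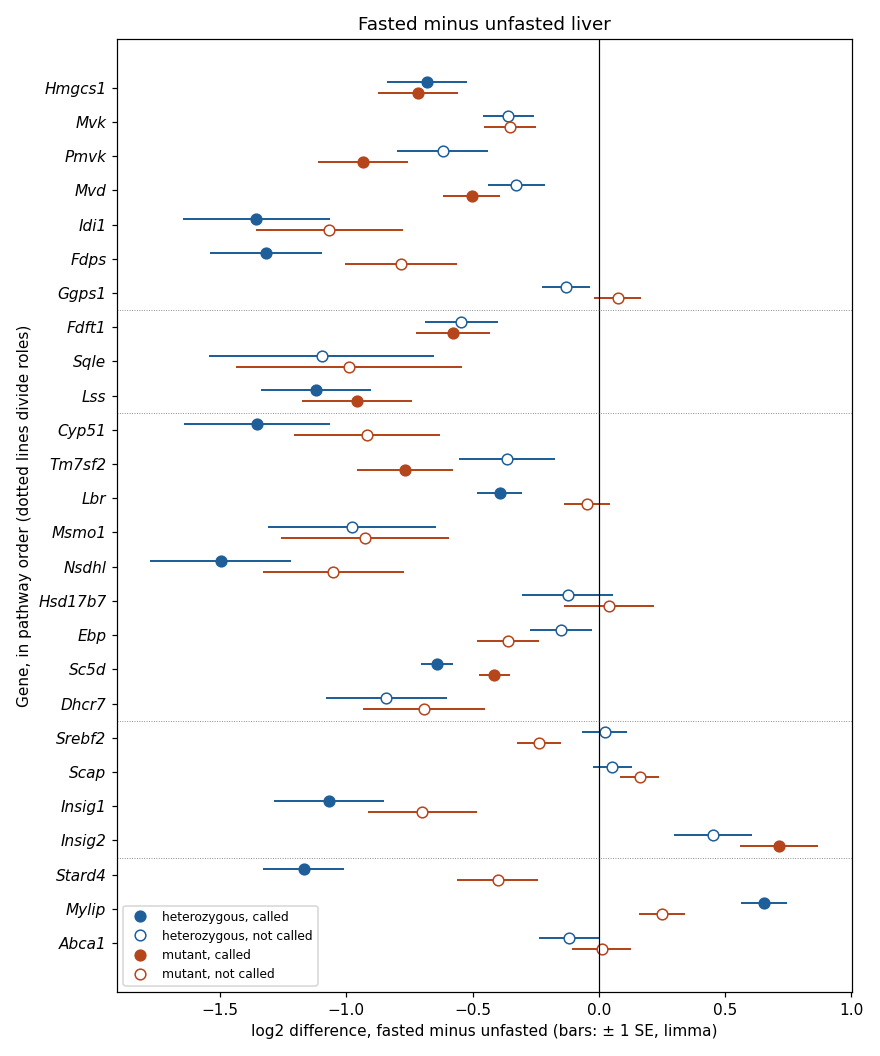
Fasted minus unfasted difference in log2 units for the listed genes in heterozygotes and in mutants, with bars of 1 standard error on each side from limma; filled points are called. Nearly all enzymes lie below 0 in both genotypes, Mylip and Insig2 lie above 0 in both, and Stard4 is at -1.17 in heterozygotes and -0.40 in mutants.

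Whether the fasting response differed between the genotypes was tested directly, as the interaction. None of the 26 genes was called by limma, against 0.01% of all genes, and 4 had an unadjusted p under 0.05, against 11% of all genes. These were Stard4, with a difference between responses of 0.77 ± 0.23 (unadjusted p = 0.00368 in limma, adjusted 0.329), Mylip with -0.40 ± 0.13 (adjusted 0.362), Lbr with 0.35 ± 0.13 (adjusted 0.397) and Sc5d with 0.23 ± 0.09 (adjusted 0.41). A call in 1 genotype and not in the other is therefore not shown to be a difference between them. The fast length, which was not matched, enters this comparison too.

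The fatty acid arm of SREBP, the lipogenic genes driven mainly by SREBP-1c, was set beside the cholesterol genes. 8 of 9 listed genes were measured. On fasting 6 were called lower in heterozygotes and 6 in mutants, against 0.838% and 1.02% of all genes, and none higher. In heterozygotes Fasn, fatty acid synthase, fell by 1.72 (limma adjusted p = 3.14e-05) and the elongase Elovl6 by 1.58, and in mutants Fasn fell by 1.64 and Elovl6 by 1.12. The median over the list was -1.06 in heterozygotes and -0.84 in mutants. None of the 8 was called by limma for the interaction, with 4 at an unadjusted p under 0.05, against 11% of all genes.

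Between genotypes, 2 of the 8 were lower in unfasted mutants, Acly (ATP citrate lyase) by -0.66 ± 0.16 and Mid1ip1 by -0.41 ± 0.11 (limma adjusted p = 0.0179 and 0.0294), and none was higher, against 3.69% of all genes lower and 4.25% higher. The median was -0.19, against 0.52 for the 19 cholesterol enzymes. In fasted livers 1 was higher, Elovl6 by 0.63 ± 0.14 (limma adjusted p = 0.00945), against 8.62% of all genes higher, and the median was 0.02. On replicate 3 of the fasted mutants, where the cholesterol enzymes were low, the median of this arm was -1.05 relative to unfasted heterozygotes, against -0.99 to -0.85 on the other 3 fasted mutants. The difference between these medians was not tested.

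Srebf1, which encodes SREBP-1 and is induced by LXR and by insulin, was among 8 measured LXR targets, a list that leaves out Abca1 and Mylip. It was 1.10 lower in unfasted mutants (-1.10 ± 0.17, limma adjusted p = 0.0013) and fell by 1.70 on fasting in heterozygotes and by 0.70 in mutants. For the interaction of genotype and fasting none of the 8 was called by limma, with 2 at an unadjusted p under 0.05, against 11% of all genes. Besides Srebf1, Abcg1, a sterol exporter, was called in unfasted livers, 0.33 ± 0.06 higher in mutants. In fasted livers Lpcat3, a phospholipid-remodelling enzyme, was 0.37 ± 0.06 higher and the desaturase Scd1 0.52 lower (-0.52 ± 0.12) in mutants. In unfasted livers 1 of the 8 was thus higher and 1 lower, against 4.25% and 3.69% of all genes, and in fasted livers likewise, against 8.62% and 5.01%.

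Genes that process SREBP or carry out sterol-regulated degradation were measured for 7 of 10 listed. Tmem97, a sterol-regulated membrane protein and SREBP target, was higher in mutants by 0.47 ± 0.13 unfasted and 0.59 ± 0.13 fasted (limma adjusted p = 0.0365 and 0.00799). Erlin1, which helps to degrade sterol-sensing proteins, was 0.51 ± 0.13 higher in fasted mutants (0.0187). On fasting none of the 7 was called by limma in either genotype, with 2 at an unadjusted p under 0.05 in heterozygotes and 1 in mutants, against 12.3% and 22.2% of all genes.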

How the data were processed

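RNA from 16 snap-frozen livers was measured on 16 arrays, from 300 ng of total RNA each per the labels' protocols. The authors deposited log2 values, made with Affymetrix Expression Console and RMA per the submitters' processing notes, a method that subtracts background, normalizes arrays by quantiles and summarizes probes. The sources used here give no versions. The log2 scale was inferred from the range, 3.80 to 14.33. Array medians were 7.33 to 7.40, no arrays were identical, and correlations within groups were 0.985 to 0.996. The table has no detection calls, and the number of arrays limits the precision. No batch or scan date was given in the sources used here.

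Of 35556 probe sets, 21789 had 1 symbol, 1621 several and 12146 none listed. Only the first were used, and 21698 of them matched a RefSeq gene table. All 16 arrays entered 1 limma fit (limma 3.58.1, R 4.3.3) with a mean per group and eBayes with an intensity trend. The two-sided p-values were Benjamini-Hochberg adjusted over 19938 genes. The fit was checked on simulated data with independent normal noise for each gene and changes in fasted mutants only. Genes that vary together and arrays that stand apart were not simulated. The series' design text names 4 mice per group, which are the replicates.

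All listed genes are described, and in other lists up to 4 called genes with the largest differences. The members and lists were chosen with earlier results of these data known. Promoter sequences come from RefSeq (GRCm38.p6). Alternatives were a replicate block, fits on 8 arrays, array weights, median centring and a further quantile normalization of the deposited RMA values. The others were eBayes without trend or robust, averaged probe sets, genes above the median level, a threshold of 0.01 and leaving out each array.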

Additional observations from a re-analysis of the deposited data

Results flagged for a closer look

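Of 104 groups of 4 arrays (26 genes in 4 groups), 7 held a value whose gap to its nearest neighbour, as a share of the group's range, passed Dixon's 95% critical value for groups of 4. Chance flags about 1 group in 20.

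2 of the 7 were replicate 3 of the fasted mutants. Its Fdps level was 9.73, against 10.73 to 10.89 on the other 3 (gap ratio 0.858), and its Sqle level 8.62, against 10.39 to 10.69 (0.855). Replicate 1 of the fasted heterozygotes was low for Lss, at 8.20 against 8.50 to 8.54 (0.889), and for Insig1, at 10.88 against 11.24 to 11.29 (0.887). Replicate 2 of the unfasted heterozygotes was low for Msmo1, at 10.41 against 11.51 to 11.65 (0.887). Replicate 4 of the unfasted mutants was low for Cyp51, at 11.11 against 11.36 to 11.38 (0.911). Replicate 1 of the fasted mutants, the array with the highest adipocyte marker mean (7.50, against at most 6.91 elsewhere), was low for Abca1, at 10.71 against 11.19 to 11.21 (0.946). The cause of these gaps was not tested.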

How the results depend on the processing

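All 38 called differences of single listed genes kept their sign in every fit, and 15 were called in every one, while 21 lost their call without at least 1 array. At an adjusted p under 0.01 the calls among the 26 genes were 1 in unfasted livers, 4 in fasted livers, 4 on fasting in heterozygotes and 1 on fasting in mutants. At that threshold 1.26% of all genes were called higher and 1.05% lower in unfasted livers, and 3.45% and 1.53% in fasted livers. On fasting the shares were 0.155% and 0.211% in heterozygotes, and 0.256% and 0.14% in mutants. Array weights gave 5 of the 26 on fasting in mutants, against 683 of all genes, and the fit on only the mutant arrays gave 0 of the 26. Without single arrays the calls among the 26 ran from 3 to 10 in unfasted livers and 8 to 15 in fasted livers. They ran from 5 to 14 on fasting in heterozygotes and 2 to 12 on fasting in mutants, and stayed at 0 for the interaction. Over all genes, fits on only the arrays compared called 764 rather than 1584 genes in unfasted livers, 568 rather than 313 on fasting in heterozygotes and 33 rather than 667 in mutants. Array weights called 1029 on fasting in heterozygotes. Further quantile normalization moved the share of higher calls on fasting in mutants from 69.6% to 53.6%. Fits of genes above the median level tested fewer genes. The companion lists were not rerun under these settings.

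With the replicate number as a block, 5, 13, 11 and 8 of the 26 genes were called in unfasted livers, in fasted livers, and on fasting in heterozygotes and mutants, and 0 for the interaction. Of all 19938 genes, that fit called 1672, 2739, 383 and 644 in the same order, and 2 for the interaction. Among the 26 genes, Insig2 in unfasted livers was the call lost. Deviations of same-numbered arrays correlated between -0.12 and 0.252, and 1, 3, 2 and 0 of 4 matched their own number best, so the numbers were not taken to pair the mice.

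Reversals occurred only for differences that were not called. In unfasted livers Tm7sf2 was -0.0023 and Lbr -0.021 after median centring, and Scap 0.019 after further quantile normalization. Without single arrays Tm7sf2 ran from -0.083 to 0.17, Lbr from -0.037 to 0.079 and Scap from -0.070 to 0.029. In fasted livers Ggps1 was -0.0099 after further quantile normalization. There, without single arrays, Ggps1 ran from -0.0088 to 0.086, Insig1 from -0.010 to 0.38 and Abca1 from -0.10 to 0.064. On fasting in heterozygotes Srebf2 ran from -0.021 to 0.064. On fasting in mutants array weights gave -0.036 for Ggps1 and -0.041 for Hsd17b7, and further quantile normalization -0.017 for Hsd17b7 and -0.032 for Abca1. Without single arrays Lbr ran from -0.10 to 0.014, Hsd17b7 from -0.10 to 0.21 and Abca1 from -0.10 to 0.13. The cause of these shifts was not tested.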

Other observations

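Genes of cholesterol uptake, esterification and trafficking were measured for 8 of 10 listed. Nceh1, a hydrolase of cholesterol esters, was higher in mutants by 0.57 ± 0.15 unfasted and 0.76 ± 0.15 fasted, and rose on fasting in mutants by 0.59 ± 0.15 (limma adjusted p = 0.0246, 0.00385 and 0.0391). Npc2, which carries cholesterol out of lysosomes, was 0.38 ± 0.09 higher in unfasted mutants (limma adjusted p = 0.0202). Lcat, which esterifies cholesterol in plasma, was lower in fasted mutants (-0.21 ± 0.06, adjusted p = 0.0285). Macrophage markers were higher in fasted mutants, 9.43 to 9.82 as a mean per array against 8.69 to 9.23 in fasted heterozygotes, and their part in these values was not tested.

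In the non-sterol branches of the mevalonate pathway 7 of 8 listed genes were measured. Pdss2, which makes the side chain of ubiquinone, was lower in unfasted mutants (-0.26 ± 0.08, limma adjusted p = 0.0466), and Fnta, a subunit of the prenyltransferases, rose on fasting in mutants by 0.31 ± 0.06 (0.0184). In fasted livers and on fasting in heterozygotes none of the 7 was called by limma, with 1 at an unadjusted p under 0.05 in each, against 30% and 12.3% of all genes.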
